A study of Macaca fascicularis with 8 samples.

Results

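The solute carriers are membrane proteins that move amino acids, ions, metals, sugars, nucleotides and metabolites across the cell surface and the membranes of organelles. Their symbols give the family number and the member. In an RPKM table (reads per kilobase of gene, scaled to sequencing depth) of embryonic stem cells (ESCs) of the cynomolgus monkey, 90 rows carried a gene name beginning with SLC and a number, apart from the SLC2A glucose transporters. They gave 89 genes out of 33121 in the table, since SLC26A10 had more than 1 row and the row with the highest mean was kept. The names were those of the table's own name column, which names 4302 genes, so many solute carriers are outside this set; among them were SLC3A2, SLC7A5, SLC7A11, SLC1A5, SLC16A3 and SLC20A1, which are not analysed here. Each member was placed by its family in a class of substrate. There were 14 amino acid transporters, 13 ion transporters, 8 transporters of zinc, copper or iron, 5 nucleotide sugar transporters, 14 mitochondrial carriers and 35 members of other classes.

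The comparison was of 4 libraries of dome-shaped with 4 of primed ESCs, all from polyadenylated RNA. Primed ESCs were flat colonies, weak in single cell passage, grown in CESM, a blend of PSGro human pluripotent stem cell medium and a conventional medium for monkey ESCs. Dome-shaped ESCs were strong in single cell passage and grew in NHSMV, a knockout DMEM with AlbuMAX, N2 supplement, insulin, LIF, basic FGF, TGF-β1, β-mercaptoethanol and 50 µg/ml vitamin C. NHSMV also held 1 mM glutamine, nonessential amino acids and the kinase inhibitors PD0325901 (MEK, 1 µM), CHIR99021 (GSK3, 3 µM), SB202190 and SB203580 (p38) and SP600125 (JNK). How the media differ in amino acids and metals is otherwise not stated in the labels, and medium, colony shape and group cannot be told apart. No label states that the libraries came from separate cultures or animals, so p-values measure the spread between these libraries, which may be technical.

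The read steps in the values implied 14400000 to 18080000 reads per library. On the first principal component of all tested genes dome-shaped replicate 4 lay at 9.9, dome-shaped replicates 1 to 3 at 40.7 to 41.1 and the primed libraries at -37 to -28.6. Marker genes of several cell types moved with the groups. Beside the counts that follow, 6.38% of all genes tested were higher and 7.96% lower. All 8 tested epithelial markers were lower in dome-shaped ESCs, with summed levels of 790 to 923 RPKM in primed and 222 to 357 RPKM in dome-shaped libraries. Of 5 tested trophoblast markers 3 were lower (sums 49.4 to 137 and 21.5 to 26.4 RPKM), and of 6 tested pluripotency markers 3 were lower. The pluripotency sum was 2061 to 2333 RPKM in primed libraries, 1408 to 1599 RPKM in the first 3 dome-shaped replicates and 1972 RPKM in replicate 4. Only 6 of 12 listed markers were found, without POU5F1 and NANOG. LIN28A, not called, gave the largest part (964 to 1183 and 733 to 954 RPKM). TDGF1 stood at 21.8, 80.1, 57.0 and 273 RPKM in dome-shaped replicates 1 to 4. SOX2 had a change above 0 and was not called. Of 3 tested endoderm markers FOXA2 was lower (sums of the 4 found 32.7 to 58.7 and 1.31 to 17.0 RPKM), and of 4 tested mesoderm markers KDR was lower (sums of the 7 found 24.9 to 73.9 and 12.5 to 57.6 RPKM). Of 4 tested fibroblast markers PDGFRB was lower, and the 7 found summed to 26.1 to 66.6 and 21.1 to 30.9 RPKM. Of these, DCN and POSTN were under 1 RPKM in every library, and LUM reached 11.8 RPKM in primed replicate 3. The neural ectoderm markers were not called in either direction (sums 206 to 423 and 224 to 337 RPKM; of 2 tested, 0 had an unadjusted p under 0.05 in limma). The part of these differences in the transporter results was not tested. In bulk RNA, fewer cells of a type and less RNA per cell cannot be told apart.

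Most solute carriers that could be tested were not called different between the states. Of 89 members, 59 had at least 1 RPKM in at least 4 libraries and were tested with limma on log2(RPKM + 1), with p-values adjusted over all 15597 genes tested. In dome-shaped ESCs 3 members were higher (5.08%) and 5 lower (8.47%), against 6.38% higher and 7.96% lower among all genes tested. These shares are near the background. The 3 higher members were SLC25A3, SLC31A1 and SLC39A1, and the 5 lower ones were SLC1A1, SLC44A1, SLC15A2, SLC6A6 and SLC50A1. The median log2 change of the tested members was -0.071, and that of all genes tested was 0.026. The groups did not overlap for 18 members (30.5%; 8 with dome-shaped above and 10 below), against 22.2% of all genes tested (11.5% above and 10.7% below). Changes ranged from -1.79 for SLC1A1 to 0.64 for SLC16A4. In limma 21 members had an unadjusted p under 0.05. The share of all genes tested at that limit was not counted, so no excess can be read from the 21.

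**Figure D1:**
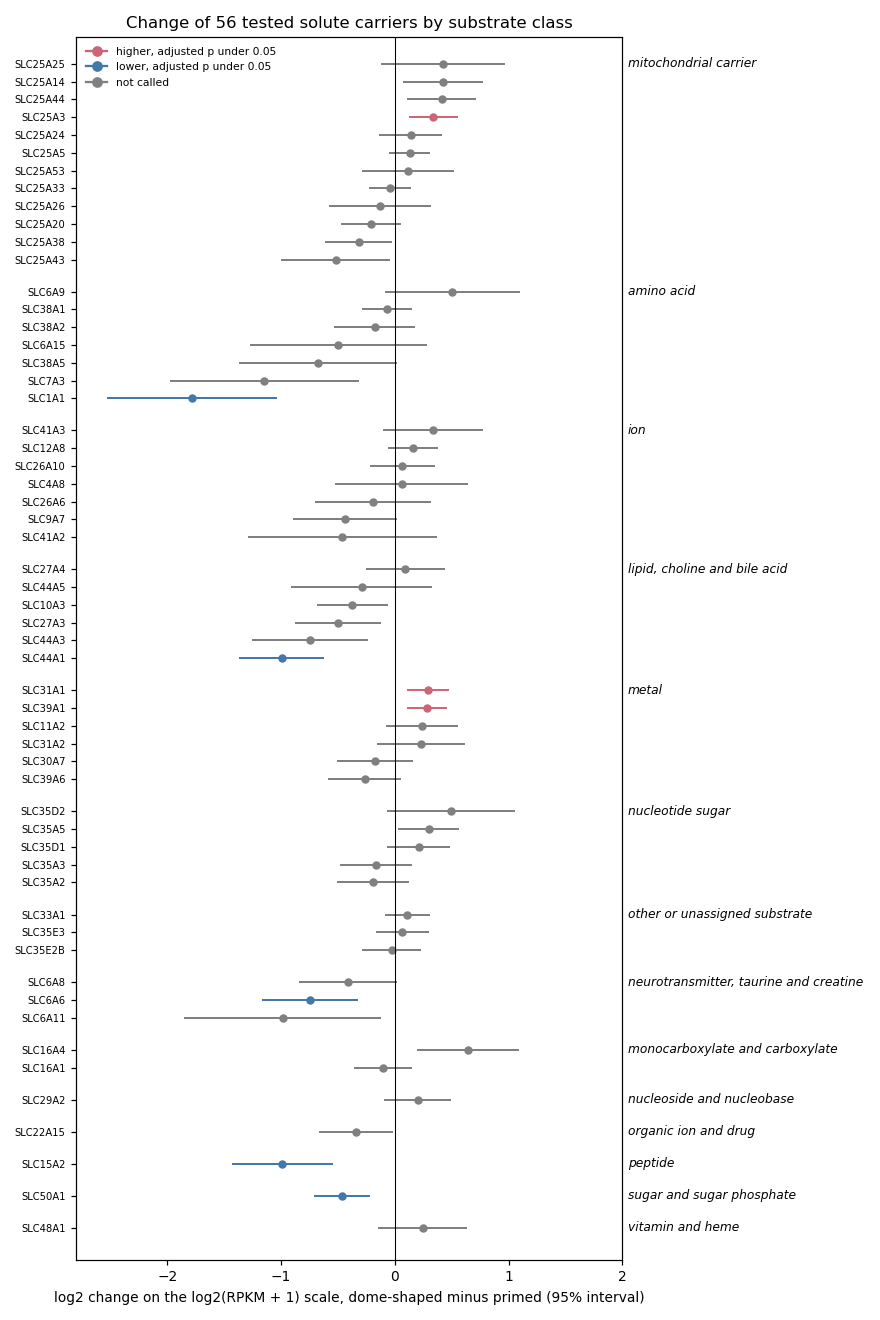
Horizontal axis: dome-shaped minus primed difference in log2(RPKM + 1), with limma's 95% interval; rows: 56 of the 59 tested members by substrate class, red for higher, blue for lower and grey for not called. The 3 higher members lie between 0.28 and 0.34, the 5 lower ones between -1.79 and -0.46, and no member of the ion or nucleotide sugar class was called.

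Amino acid transporters feed protein synthesis and, through glutamate, glutamine and cystine, the cell's nitrogen and redox metabolism. Of 14 members, 7 were tested, and in dome-shaped ESCs 1 was lower and none higher (14.3% lower, against 7.96% of all genes tested; median log2 change -0.50). The called gene was SLC1A1, which encodes EAAT3, a sodium-dependent transporter of glutamate, aspartate and cysteine. It stood at 9.38, 5.00, 3.47 and 4.37 RPKM in primed replicates 1 to 4 and at 0.271, 1.93, 0.410 and 1.01 RPKM in the dome-shaped ones. These values rest on about 15 to 545 reads a library. Every dome-shaped library was below every primed one, and the primed mean of 5.55 ± 2.62 RPKM was 6.13 times the dome-shaped mean of 0.906 ± 0.756 RPKM (SD, n = 4 each; limma log2 change -1.79, SE 0.33, adjusted p = 0.010). The call held whichever single library was left out, with changes of -2.02 to -1.54; without dome-shaped replicate 2 the ratio of means was 9.87.

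SLC38A1 and SLC38A2, sodium-coupled transporters of neutral amino acids, had the highest means of the class over all 8 libraries and were not called. SLC38A1, which carries glutamine, stood at 89.8, 88.8, 86.6 and 101 RPKM in primed and at 86.0, 82.2, 78.9 and 102 RPKM in dome-shaped libraries (log2 change -0.071, 95% interval -0.28 to 0.14). SLC38A2, the adaptive system A transporter, stood at 93.3, 84.5, 85.9 and 88.7 RPKM and at 61.3, 80.6, 68.2 and 108 RPKM (log2 change -0.18, 95% interval -0.52 to 0.17). The values of the groups overlapped for both. SLC38A4, another system A gene, stood at 6.09, 0.849, 15.9 and 4.28 RPKM in primed and at 0.141, 0.0224, 0.128 and 0.134 RPKM in dome-shaped libraries, so the groups did not overlap and the primed mean was 63.7 times the dome-shaped mean. Without primed replicate 3 the ratio was 35.1, and the lowest dome-shaped value rests on about 1 read. It reached 1 RPKM in 3 libraries only and was therefore not tested; in a fit with no filter on low values its log2 change was -2.40 (SE 0.57, limma adjusted p = 0.0414; 4.47% of 25576 genes were lower in that fit). SLC38A4 and the other members named outside the rule for named genes were singled out after their values were seen, or because their class is described whole. SLC38A1, SLC38A2 and SLC38A4 follow each other in the RefSeq order of protein-coding genes of the cynomolgus genome.

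SLC6A17, a vesicular transporter of neutral amino acids known from neurons, likewise stayed under the filter. It stood at 1.85, 1.23, 1.85 and 0.984 RPKM in primed and at 0.0855, 0.254, 0.104 and 0.222 RPKM in dome-shaped libraries, with no overlap (no filter: log2 change -1.07, SE 0.14, limma adjusted p = 0.00796). SLC7A3, the cationic amino acid transporter CAT3 for arginine and lysine, stood at 84.8, 107, 82.9 and 103 RPKM in primed libraries and at 70.9, 19.4, 32.2 and 67.9 RPKM in dome-shaped ones. Each dome-shaped value was below every primed value, but the test did not pass (log2 change -1.15, SE 0.36, limma adjusted p = 0.0645). It passed without dome-shaped replicate 1 (limma adjusted p = 0.0402) or without dome-shaped replicate 4 (limma adjusted p = 0.0338). SLC6A9, the glycine transporter GLYT1, was the tested member of the class with a change above 0, at 5.19 ± 1.599 and 7.95 ± 3.18 RPKM (limma adjusted p = 0.217). The other untested members, SLC38A3, SLC7A14, SLC6A20, SLC1A7 and SLC6A14, were under 1 RPKM in every library.

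**Figure D2:**
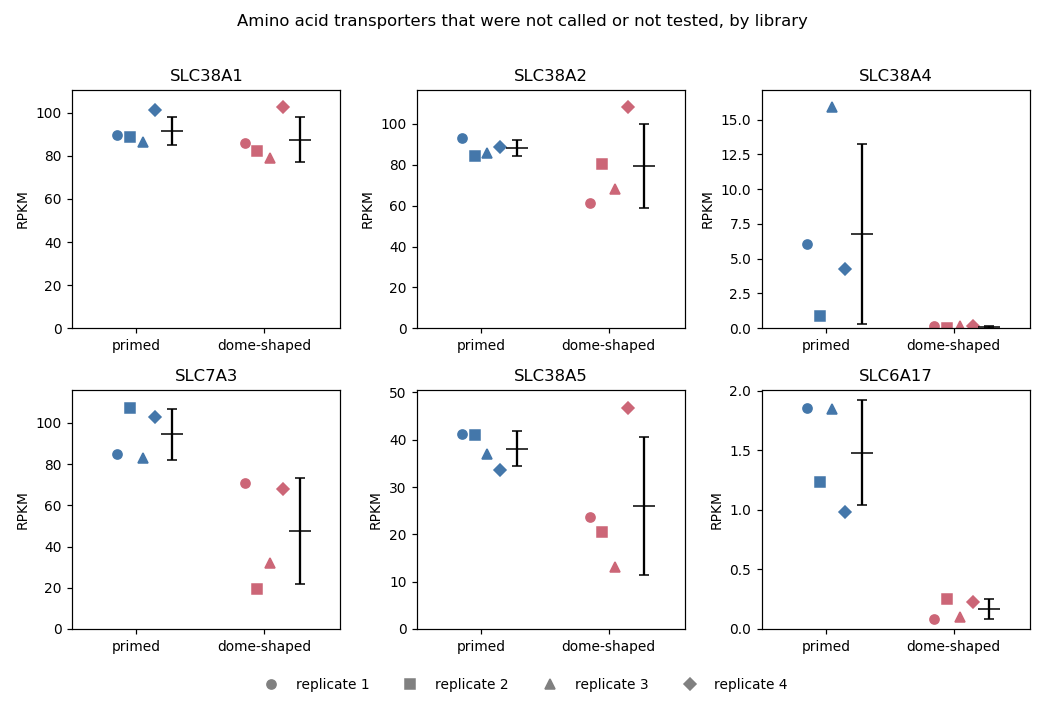
Vertical axes: RPKM from 0, by group, 1 marker shape per replicate, with the mean and SD beside the points, for 6 amino acid transporters that were not called or not tested. SLC38A4 lies at 0.849 to 15.9 RPKM in primed and at most at 0.141 RPKM in dome-shaped libraries, while SLC38A1 and SLC38A2 overlap between the groups.

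Among transporters of zinc, copper and iron, 2 of 6 tested members were higher and none lower in dome-shaped ESCs (33.3% higher, against 6.38% of all genes tested; median log2 change 0.24), by small steps. SLC39A1 encodes ZIP1, a zinc importer of the cell surface. It stood at 67.4, 60.2, 60.7 and 58.9 RPKM in primed and at 69.2, 78.7, 79.1 and 74.2 RPKM in dome-shaped libraries (log2 change 0.281, SE 0.075, limma adjusted p = 0.0374). SLC31A1 encodes CTR1, the high-affinity copper importer. It stood at 46.1, 41.8, 39.7 and 39.5 RPKM and at 50.2, 54.4, 52.6 and 48.4 RPKM (log2 change 0.29, SE 0.078, limma adjusted p = 0.0364). The dome-shaped libraries lay above all primed ones for both genes, by 1.22 and 1.23 times on the means. Both calls depended on the libraries and the scaling: median-of-ratios scaling gave limma adjusted p = 0.0730 for SLC39A1 and 0.0586 for SLC31A1. Both were lost without primed replicate 2, primed replicate 3, primed replicate 4, dome-shaped replicate 2 or dome-shaped replicate 3. SLC39A1 was also lost without dome-shaped replicate 4 (limma adjusted p up to 0.106 for SLC39A1 and 0.0986 for SLC31A1). In the fits that lost both, 2.44% to 3.31% of all genes were higher, and without dome-shaped replicate 4 8.26%. Over all fits without 1 library the log2 changes were 0.257 to 0.323 for SLC39A1 and 0.266 to 0.340 for SLC31A1.

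The remaining metal transporters were not called. SLC11A2, the iron importer DMT1, stood at 19.4, 20.2, 21.3 and 22.7 RPKM in primed and at 33.4, 22.2, 23.8 and 21.5 RPKM in dome-shaped libraries, with dome-shaped replicate 1 the highest (log2 change 0.24, 95% interval -0.071 to 0.55). SLC31A2, a copper transporter related to CTR1, was at 1.82 ± 0.340 and 2.32 ± 0.529 RPKM. SLC39A6, the zinc importer ZIP6, was at 17.7 ± 0.897 and 14.8 ± 2.82 RPKM, and SLC30A7, which loads zinc into the Golgi, at 10.7 ± 1.78 and 9.33 ± 1.25 RPKM. The zinc transporter genes SLC39A5 and SLC30A2 were under 1 RPKM throughout. Of 12 tested metal-handling genes outside the solute carriers 2 were higher and none lower, against 6.38% and 7.96% of all genes. They were FTH1, the ferritin heavy chain that stores iron, at 29.97 ± 5.59 and 43.3 ± 5.06 RPKM, and IREB2, an iron-responsive RNA-binding protein, at 42.7 ± 0.966 and 52.5 ± 3.37 RPKM (limma adjusted p = 0.0333 and 0.0270).

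Mitochondrial carriers of family SLC25 link the matrix to the cytosol, and the table's protein domain text named a mitochondrial carrier for 14 of 14. Of 12 tested, 1 was higher and none lower (8.33% higher, against 6.38% of all genes tested; median log2 change 0.12). SLC25A3, the phosphate carrier that supplies ATP synthesis, had the highest level of all members. It stood at 337, 346, 278 and 335 RPKM in primed and at 455, 375, 394 and 415 RPKM in dome-shaped libraries, with every dome-shaped value above every primed one (log2 change 0.34, SE 0.092, limma adjusted p = 0.0388). Its call was lost whichever single library was left out (limma adjusted p = 0.0542 to 0.0832) and with median-of-ratios scaling (limma adjusted p = 0.0538). Across the 8 libraries the members with the pattern most like it on the log2 scale were SLC6A9 (Pearson r 0.82), SLC29A2, a nucleoside transporter (0.787), and SLC31A1 (0.74), over libraries that share the group difference.

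SLC25A5, the ADP/ATP carrier ANT2, was the next highest carrier, at 253, 263, 252 and 247 RPKM in primed and at 287, 255, 260.4 and 313 RPKM in dome-shaped libraries (log2 change 0.13, 95% interval -0.041 to 0.30). The family has close copies, and reads of SLC25A3 or SLC25A5 could be shared with them. SLC25A44, a carrier of branched-chain amino acids, stood at 6.90, 8.15, 8.55 and 8.21 RPKM in primed and at 9.62, 12.9, 11.8 and 9.55 RPKM in dome-shaped libraries, without overlap (log2 change 0.41, SE 0.13, limma adjusted p = 0.0655). SLC25A38, a glycine carrier of heme synthesis, stood at 32.6 to 34.7 RPKM and at 20.5 to 32.5 RPKM, also without overlap (limma adjusted p = 0.121). SLC25A20, the carnitine and acylcarnitine carrier, stood at 6.66 to 8.21 and 5.89 to 6.44 RPKM, again without overlap (limma adjusted p = 0.232). SLC25A14, SLC25A25 and SLC25A43 had changes of 0.42, 0.42 and -0.52, none of them called. The changes of SLC25A33, SLC25A24, SLC25A26 and SLC25A53 lay between -0.13 and 0.14. SLC25A34 was under 1 RPKM in every library, and SLC25A52 was listed at 0 in all of them. Of 21 tested genes for other mitochondrial membrane transport (such as channels, the pyruvate carrier and protein import) limma called none in either direction. Among all genes tested 6.38% were higher and 7.96% lower. An unadjusted p under 0.05 was found for 2 of the 21 in limma (median log2 change -0.010).

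Ion transporters set pH, volume and chloride, and limma called none of the 9 rows of this class that were tested. None had an unadjusted p under 0.05. Of all genes tested 6.38% were higher and 7.96% lower, so a few rows without a call do not set the class apart. Without the rows named SLC26A10 and SLC12A8, whose best protein matches are other genes, 7 remained, again with none called and none at an unadjusted p under 0.05 (median log2 change 0.062). SLC26A6, an anion exchanger, stood at 52.5, 62.9, 56.9 and 64.5 RPKM in primed and at 29.8, 59.9, 62.0 and 64.0 RPKM in dome-shaped libraries, where replicate 1 was the low one (log2 change -0.19, 95% interval -0.69 to 0.31). The magnesium transporter genes SLC41A3 and SLC41A2 had changes of 0.33 and -0.46 and SLC9A7, a Golgi exchanger, of -0.44. SLC4A8, a bicarbonate transporter, stood at 1.15 to 2.80 and 1.075 to 3.06 RPKM. SLC26A1, SLC24A2, SLC34A3 and SLC9C1 were below the filter, at most at 1.53 RPKM.

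The identity of the rows named SLC26A10 and SLC12A8 is uncertain. The SLC26A10 row kept for its level (31.6 to 47.2 RPKM) had as its best protein match a rho guanine nucleotide exchange factor, while another listed match named a transporter. Its protein domain text named no transporter. The row of the same name that was left out had the SLC26A10 transporter as its best match, and its protein domain text named a transporter. Values given under SLC26A10 are those of the kept row and may not be those of the transporter gene. The best match of the SLC12A8 row (10.3 to 12.9 RPKM, among the 8 members with dome-shaped above) was the zinc finger protein encoded by ZNF148, the RefSeq neighbour of SLC12A8, and none of its listed matches named a transporter, while its protein domain text did. Neither row was called. The best match named a transporter for 81 of 89 members, and for 88 at least 1 listed match did. Of 16 tested ion pumps and channels outside the solute carriers, 2 were higher (12.5%, against 6.38% of all genes tested) and 1 lower (6.25%, against 7.96%). ATP6V1H, a subunit of the vesicular proton pump, was lower, at 51.8 ± 5.97 and 23.2 ± 1.66 RPKM (limma adjusted p = 0.000792). CLCN6, a chloride transporter gene named after its values were seen, was among the higher ones, at 20.7 ± 2.42 and 27.0 ± 2.50 RPKM (limma adjusted p = 0.0472).

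Nucleotide sugar transporters carry activated sugars into the Golgi and endoplasmic reticulum for glycosylation. All 5 members were tested and limma called none, against 6.38% higher and 7.96% lower among all genes tested. So few members without a call do not set the class apart. An unadjusted p under 0.05 was found for 1 of the 5 in limma (median log2 change 0.21). SLC35A2, the UDP-galactose transporter, was the most abundant at 25.9, 32.5, 31.1 and 30.98 RPKM in primed and 20.05, 27.8, 27.0 and 31.3 RPKM in dome-shaped libraries (log2 change -0.19, 95% interval -0.50 to 0.12). SLC35A5, of the same family, stood at 11.6, 13.6, 11.8 and 14.2 RPKM and at 14.4, 18.6, 16.2 and 14.8 RPKM, without overlap (log2 change 0.30, SE 0.12, limma adjusted p = 0.111). SLC35D2 stood at 6.24 to 9.76 RPKM in primed libraries and at 17.3, 13.1, 7.83 and 8.16 RPKM in dome-shaped ones, with the first 2 replicates above all primed values (limma adjusted p = 0.205). SLC35D1, a carrier of UDP-glucuronic acid, stood at 9.95 ± 0.385 and 11.7 ± 1.64 RPKM and SLC35A3, a carrier of UDP-N-acetylglucosamine, at 7.76 ± 1.45 and 6.74 ± 0.370 RPKM. Of 33 tested Golgi glycosylation enzymes 5 were higher (15.2%, against 6.38% of all genes tested) and 4 lower (12.1%, against 7.96%). The smallest adjusted p values were those of the sialyltransferase genes ST6GAL2, at 1.80 ± 0.286 and 7.46 ± 2.81 RPKM, and ST3GAL3, at 4.57 ± 1.09 and 11.1 ± 3.65 RPKM (limma adjusted p = 0.00701 and 0.0142).

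In the remaining classes 4 of 20 tested members were lower in dome-shaped ESCs, with no higher member (20% lower, against 7.96% of all genes tested; median log2 change -0.36). Among these, SLC15A2 passed the filter only through its primed libraries. SLC44A1, the choline transporter CTL1 that supplies phosphatidylcholine synthesis, stood at 65.3, 80.6, 76.4 and 90.5 RPKM in primed and at 42.5, 33.5, 30.4 and 50.7 RPKM in dome-shaped libraries. Its groups did not overlap (log2 change -0.99, SE 0.16, limma adjusted p = 0.00671), and the call held in each fit without 1 library. SLC50A1, the sugar transporter SWEET1, stood at 28.2, 30.2, 26.2 and 28.4 RPKM and at 23.1, 17.0, 20.04 and 21.2 RPKM, without overlap (log2 change -0.46, SE 0.10, limma adjusted p = 0.0205). It was lost without primed replicate 2, primed replicate 4 or dome-shaped replicate 3 (limma adjusted p up to 0.0670).

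SLC15A2, the peptide transporter PEPT2, stood at 1.66, 1.57, 1.47 and 2.99 RPKM in primed and at 0.4999, 0.300, 0.402 and 0.579 RPKM in dome-shaped libraries, from about 14 to 162 reads a library. The groups did not overlap (log2 change -0.99, SE 0.19, limma adjusted p = 0.0122), and the call held in each fit without 1 library. Every primed library and no dome-shaped library reached 1 RPKM, so SLC15A2 entered the test only through the group where it was high. It stays in the counts of lower members. SLC6A6, the taurine transporter, stood at 111, 118, 80.6 and 107 RPKM in primed and at 61.6, 53.0, 48.7 and 86.7 RPKM in dome-shaped libraries. Dome-shaped replicate 4 lay above primed replicate 3, so the groups overlapped (log2 change -0.75, SE 0.18, limma adjusted p = 0.0278). The call was lost without primed replicate 1, primed replicate 2, primed replicate 4, dome-shaped replicate 1, dome-shaped replicate 2 or dome-shaped replicate 3 (limma adjusted p up to 0.0788).

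**Figure D3:**
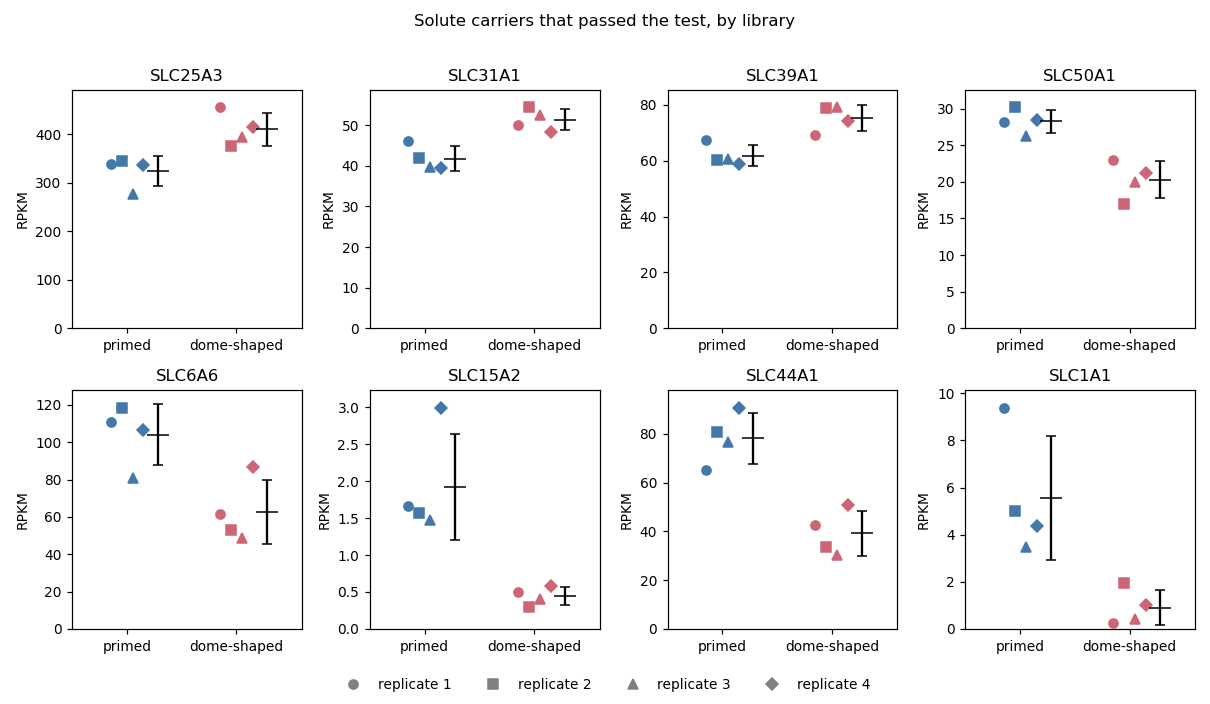
Vertical axes: RPKM from 0 for the 8 members that passed the test, by group, 1 marker shape per replicate, with the mean and SD beside the points. The groups do not overlap for 7 of them; for SLC6A6 dome-shaped replicate 4 (86.7 RPKM) lies above primed replicate 3 (80.6 RPKM).

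Several members of these classes were not called. SLC16A1, the lactate transporter MCT1, stood at 163, 129.8, 168 and 129 RPKM in primed and at 124, 138, 153 and 131 RPKM in dome-shaped libraries (log2 change -0.11, 95% interval -0.35 to 0.14). SLC16A4, of the same family, stood at 0.403 to 1.04 and 1.03 to 2.14 RPKM (log2 change 0.64, limma adjusted p = 0.0580). SLC44A3, a relative of CTL1, stood at 1.65, 1.98, 1.33 and 1.99 RPKM and at 1.01, 0.193, 0.367 and 1.13 RPKM, without overlap (log2 change -0.75, SE 0.22, limma adjusted p = 0.0537). The fatty acid transport genes SLC27A4 and SLC27A3 had changes of 0.092 and -0.50, and SLC10A3 of the bile acid family -0.37. SLC33A1, which carries acetyl-CoA into the endoplasmic reticulum, and SLC35E3 and SLC35E2B, whose substrates are less clear, had changes between -0.029 and 0.11. The heme transporter gene SLC48A1 stood at 5.34 ± 0.614 and 6.62 ± 1.67 RPKM and SLC29A2 at 7.39 ± 1.03 and 8.59 ± 0.528 RPKM. SLC44A5, of the choline transporter family, and SLC22A15, of the organic ion family, had changes of -0.29 and -0.34.

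Leaving out dome-shaped replicate 4 changed the calls of several members. Without it 15 of 59 tested members were lower (25.4%) and 3 higher (5.08%), against 9.24% and 8.26% of all genes tested in the same fit. The 15 held the 5 that were lower with all libraries and 10 others, among them SLC7A3, SLC38A5, SLC6A15, SLC6A8, SLC6A11, SLC44A3, SLC27A3, SLC10A3 and SLC25A38. For 7 of the 15, replicate 4 lay within or above the primed range. The 3 higher were SLC31A1, SLC25A44 and SLC16A4, so that SLC39A1 and SLC25A3 were no longer called.

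SLC38A5, a glutamine transporter, stood at 41.2, 40.9, 36.9 and 33.5 RPKM in primed libraries, at 23.6, 20.5 and 13.1 RPKM in the first 3 dome-shaped replicates and at 46.7 RPKM in replicate 4, above all primed values. SLC6A15, a neuronal transporter of branched-chain amino acids, had the same order, at 2.65 to 4.35, 1.22 to 1.87 and 5.84 RPKM. SLC6A11, the GABA transporter GAT3, stood at 3.67 to 4.81, 0.721 to 1.61 and 5.63 RPKM. For the creatine transporter gene SLC6A8 replicate 4 lay inside the primed range. It stood at 79.6 to 118, 57.4 to 71.8 and 107 RPKM. With all 8 libraries none of these 4 genes was called (limma adjusted p = 0.113 to 0.351). Without replicate 4 their log2 changes were -1.41 to -0.59 (limma adjusted p = 0.00274 to 0.0213). These genes were singled out for their values in replicate 4, so the fit without it is no independent support for a lower level.

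**Figure D4:**
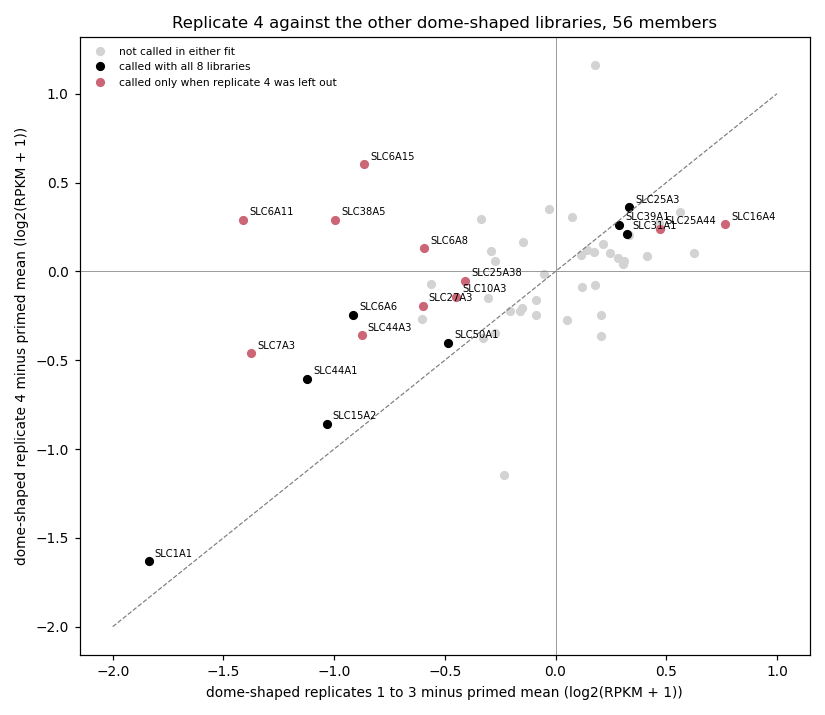
Horizontal axis: mean of dome-shaped replicates 1 to 3 minus primed mean; vertical axis: dome-shaped replicate 4 minus primed mean, both as differences of log2(RPKM + 1), for 56 of the 59 tested members; the dashed line marks equal differences. SLC6A11, SLC38A5, SLC6A15 and SLC6A8 lie left of 0 and above 0, while SLC1A1 lies at -1.84 on the horizontal and -1.63 on the vertical axis.

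Replicate 4 was not nearer to the primed libraries at every member. It lay within the primed range for 22 of 59 members (37.3%), and the other dome-shaped libraries for 13 to 19 members; over all tested genes the shares were 46.9% and 33.0% to 39.96%. SLC1A1 stood at 1.01 RPKM, SLC15A2 at 0.579 RPKM and SLC38A4 at 0.134 RPKM in replicate 4, all below every primed library. On the log2 scale the members most like SLC1A1 over the 8 libraries were SLC25A20 (Pearson r 0.896), SLC9A7 (0.869) and SLC22A15 (0.867), given as a description.

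Of the 30 members below the filter, 25 were under 1 RPKM in every library. Among the 5 that reached it were SLC38A4, SLC6A17, SLC26A1 and SLC24A2. SLC17A8, the vesicular glutamate transporter VGLUT3, was listed at 0.171, 0.380, 0.125 and 0.371 RPKM in primed libraries and at 0 in all dome-shaped ones, where the primed values rest on at most about 11 reads. Of 24 tested genes of amino acid sensing and response, from the ATF4 and mTORC1 pathways, 1 was higher (4.17%, against 6.38% of all genes tested) and none lower (median log2 change 0.17). Their summed level was 1088 to 1152 RPKM in primed and 1211 to 1693 RPKM in dome-shaped libraries, without overlap. A few abundant genes carry much of this sum. ATF4 alone stood at 298, 397, 334 and 375 RPKM in primed and at 514, 404, 429 and 594 RPKM in dome-shaped libraries. It was not called (limma adjusted p = 0.0525). The higher gene was RRAGC, a Rag GTPase that places mTORC1 on lysosomes, at 12.2 ± 1.05 and 18.4 ± 2.69 RPKM (limma adjusted p = 0.0194). Dome-shaped replicates 1 and 4 were high in the ATF4 targets ASNS, asparagine synthetase, and CHAC1, which degrades glutathione, both named after their values were seen. ASNS stood at 86.8, 70.04, 66.8 and 58.1 RPKM in primed and at 269, 62.3, 74.2 and 206 RPKM in dome-shaped libraries, and CHAC1 at 4.93, 3.89, 3.63 and 2.61 and 32.0, 3.78, 6.64 and 32.3 RPKM. Neither was called (limma adjusted p = 0.210 and 0.106).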

How the data were processed

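The 8 libraries (4 primed, 4 dome-shaped) share 1 RPKM table, deposited by the authors, with values scaled to gene length and depth. Bowtie2 2.0.6, TopHat2 2.0.9 and HTSeq 0.6.1 are named per the submitters' processing notes. Genome build, annotation release and any strand setting remain unknown. All 89 members carry Ensembl gene identifiers of the rhesus monkey (prefix ENSMMUG), whereas the libraries are from the cynomolgus monkey. Whether this affects the levels was not tested. Of 33138 rows 17 were blank and left out. The columns of dome-shaped replicates 1 to 3 carry shortened titles that matched no other sample without a column of its own. Columns of other samples numbered 0.

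RPKM times gene length came in steps, from which depth was read; of the values under 50 reads, 71.6% to 73.4% were whole (tolerance 0.01 read), too few for a count test. Replicates differed by more than sampling noise (chi-square per degree of freedom at least 7.68).

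The 15597 genes that reached 1 RPKM in 4 or more libraries were compared with limma 3.58.1 in R 4.3.3 on log2(RPKM + 1), with a mean trend, two-sided, and Benjamini-Hochberg adjustment over all of them at 0.05. Changes on this scale understate those of low genes. The fit was tested on simulated data.

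Members were those of the name rule, 1 row per name, and classes followed the SLC family. Named were, in each of the 5 main classes, up to 3 called members per direction with a mean of at least 5 RPKM and no overlap and the most abundant member, up to 4 such called members per direction in the other classes, a set of fixed genes, and in other lists up to 2 called genes with the smallest adjusted p. The members and lists were chosen with earlier results of these data known. Genes of other lists without a name in the table took the RefSeq symbol (T2T-MFA8v1.1) of a protein match (0.95 of the best score or more, 85% identity or more); 157 of 255 were found. Values of 4 members and 1 other gene are not reported here; they stay in the counts over members. Alternatives were other pseudocounts, filters, scalings, a replicate block, summed rows, no mean trend and leaving out each library.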

Additional observations from a re-analysis of the deposited data

Results flagged for a closer look

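Among the 112 groups of 4 libraries examined (56 tested members in each state), 6 had a library whose gap to its nearest neighbour took a share of the group's range on the log2 scale above Dixon's 95% critical value; chance flags about 1 in 20 groups. Among dome-shaped libraries, SLC26A6 was low in replicate 1 at 29.8 RPKM (ratio 0.912), SLC22A15 was high in replicate 2 at 0.988 RPKM (0.906) and SLC33A1 was high in replicate 3 at 16.1 RPKM (0.920). Among primed libraries, SLC25A3 was low in replicate 3 at 278 RPKM (0.863), SLC25A26, the carrier of S-adenosylmethionine, was high in replicate 3 at 25.1 RPKM (0.910), and SLC15A2 was high in replicate 4 at 2.99 RPKM (0.845). For SLC25A26 the change was -0.13 with all libraries and 0.084 without primed replicate 3, neither of them called.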

How the results depend on the processing

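Depth limits the lowest members, some of which rest on under 20 reads a library. Against 3 members higher and 5 lower in the results, median-of-ratios scaling gave 0 higher (metal 0, mitochondrial 0; 5.86% of all genes were higher), quantile normalization 5 higher (mitochondrial 2; 7.9% of all genes), a mean of at least 5 RPKM 3 lower (amino acid 0; 7.44% of all genes), no mean trend 1 higher (metal 0, mitochondrial 0) and 8 lower (5.99% and 7.61% of all genes), and no filter 0 mitochondrial carriers higher and 3 amino acid transporters lower (2.96% and 4.47% of all genes). Pseudocounts of 0.1 and 0.5 RPKM and summed rows left these counts the same. Leaving out 1 library at a time gave 0 to 3 members higher and 3 to 15 lower, 0 to 2 metal and 0 to 1 mitochondrial members higher, 1 to 4 amino acid and 0 to 1 mitochondrial members lower, and 381 to 1289 genes higher and 655 to 1441 lower overall. SLC1A1 and SLC15A2 have means of 3.23 and 1.18 RPKM over all libraries. They were therefore left out of the fit with a mean of at least 5 RPKM, and their calls were not tested there. In the fit with no filter SLC38A4, SLC6A17 and SLC17A8 were tested too and were lower (for SLC17A8 log2 change -0.33, limma adjusted p = 0.0386). SLC6A6 lost its call in that fit (limma adjusted p = 0.0501). The cause of the other shifts was not tested. The number after CES in the titles served as a replicate block. Same-numbered libraries of the 2 groups deviated from their group means with correlations of -0.098 to 0.125, and the other pairs with -0.223 to 0.201. With so few libraries a group, these correlations cannot decide whether libraries are paired by number. The labels do not say what the numbers mark: dome-shaped replicates 1 and 2 are both CES1, primed replicates 3 and 4 both CES3, and the titles of replicate 4 in the 2 groups share the stem CES3_12 (correlation 0.005). The block gave 0 members higher (metal 0, mitochondrial 0) and 2 lower (SLC1A1 and SLC44A1; limma adjusted p was 0.0529 for SLC15A2, 0.0752 for SLC50A1 and 0.0938 for SLC6A6), and 303 genes higher (1.94%) and 593 lower (3.8%) overall.

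The sign turned in at least 1 fit without 1 library for 7 of the 56 members examined by name, none of them called. Their changes over these fits were -0.29 to 0.070 for SLC26A6, -0.029 to 0.16 for the kept row named SLC26A10, -0.12 to 0.23 for SLC4A8, -0.020 to 0.20 for SLC27A4, -0.21 to 0.084 for SLC25A26, -0.026 to 0.20 for SLC25A53 and -0.086 to 0.054 for SLC35E2B. None of the 8 called members changed sign under any alternative run.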
